A study of Collinsia rattanii with 18 samples.

Results

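The smallest floral buds of an outcrossing and of a self-fertilizing *Collinsia* species were compared. *C. linearis*, the large-flowered outcrosser, and *C. rattanii*, the small-flowered selfer, are sister species, and RNA was sequenced from whole buds at 3 stages (B1 to B3, from small green buds to buds close to opening). The members were chosen by their labels as the libraries of stage B1, in which petals and anthers were still green. They are 6 of 18 libraries, with 3 *C. linearis* plants (plants 1 to 3) and 3 *C. rattanii* plants (plants 1 to 3). Each library held 2 to 4 buds of 1 plant, and the plants of a species came from 2 natural populations. The labels do not say which plant came from which population, and neither species was treated or genetically modified. The plants of the species are different individuals, so the comparison was made between plants. Each plant gave 1 library at each stage.

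A bud at this stage contains sepals, petals, anthers and pistil together. Inside an anther, the nutritive tapetum supplies the developing pollen grains, and it secretes the precursors of sporopollenin, the resistant polymer of the outer pollen wall (exine). Callose, a glucan, is laid down around the pollen mother cells and young microspores and is later dissolved. Xyloglucan, a hemicellulose, links cellulose in the walls of expanding plant cells. The mating system of a *Collinsia* species goes with flower size and with the timing of anther opening and stigma receptivity.

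Reads of both species were aligned to the genome of *C. rattanii*, and the gene models were built with RNA of *C. rattanii*. A lower count in *C. linearis* from reads that failed to align and one from less RNA cannot be told apart in this comparison. Over whole libraries, the study found no difference between the species in the share of uniquely mapped reads. Alignment of single genes was not tested. The stages were set by bud size and colour within each species, so a difference in the pace of bud development and one in expression within matched cells cannot be told apart either. In whole buds, fewer cells of a type and less RNA per cell cannot be told apart. The genes are known by the identifiers of the *C. rattanii* annotation, and only those with a function given by the study are described by role. Markers of bud tissues could not be looked up, because the table pairs no identifier with a name.

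The *C. linearis* B1 libraries held 32414716, 32548321 and 23831351 counts in genes, and the *C. rattanii* B1 libraries held 32457908, 31417384 and 30203462. Between 28895 and 30341 genes had a count in a *C. linearis* B1 library, against 29286 to 29695 in a *C. rattanii* B1 library. Of 46127 genes in the table, 27837 passed the filter on low counts and were tested. The depth differs little between libraries, apart from *C. linearis* plant 3, which is the shallowest.

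Likeness between plants of a species at B1 was uneven, and the lowest values were those of *C. linearis* plant 1. Over the 27837 tested genes, Pearson's r of log2 counts per 1000000 (CPM) was 0.908 between *C. linearis* plants 1 and 2, 0.835 between plants 1 and 3, and 0.962 between plants 2 and 3. The same value was 0.967, 0.909 and 0.949 between the *C. rattanii* plants, and it lay at 0.683 to 0.777 between the species. These are correlations across genes, which are not independent replicates. *C. linearis* plant 1 stood apart: at B1 its library correlated with the 3 *C. linearis* libraries of the next stage, B2, at 0.942, 0.923 and 0.92, all above its values with the other B1 plants. The B1 libraries of *C. linearis* plants 2 and 3 correlated with B2 at 0.827 to 0.879 and at 0.802 to 0.842. *C. rattanii* plant 3 at B1 reached 0.897 to 0.933 with the B2 libraries of its species. Calls that moved without the B1 library of *C. linearis* plant 1 are given beside the genes named. Log2 changes in that fit are given for some of these genes.

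Spread between plants was measured over the tested genes, as the average squared distance between a plant's log2 CPM and its species mean. This distance came to 1.12, 0.21 and 0.751 in *C. linearis* plants 1, 2 and 3 and to 0.436, 0.168 and 0.564 in *C. rattanii* plants 1, 2 and 3. The mean of the *C. linearis* plants was 1.78 times that of the *C. rattanii* plants, a difference that did not pass an exact permutation test (two-sided, p = 0.4, n = 3 plants each, smallest p the design allows 0.1). Without *C. linearis* plant 1 the ratio was 0.688, with the distances scaled for the number of plants in each species. The *C. linearis* plants left lie equally far from their own mean by construction, so the permutation test cannot be applied to them. In *C. linearis* plant 1, 3229 tested genes (11.6%) lay more than 2 log2 units from the mean of the other plants of its species. That number was 630 and 2601 in *C. linearis* plants 2 and 3 and 1434, 386 and 2018 in *C. rattanii* plants 1, 2 and 3.

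Of the 27837 tested genes, 4376 (15.7%) differed between the species at B1 at a false discovery rate (FDR) below 0.01. The test was edgeR's quasi-likelihood test with Benjamini-Hochberg adjustment, with the 18 libraries in 1 model and CPM scaled by trimmed mean of M values (TMM). The spread of each gene was thus estimated over all stages, with libraries of the same plant treated as independent. Expression was higher in *C. linearis* for 1901 genes (6.83% of those tested) and lower for 2475 (8.89%). Lower expression in *C. linearis* made up 56.6% of the genes called. An unadjusted p below 0.05 was reached by 11645 genes, and the median log2 change of all tested genes was 0.022. Plants of equal number are not paired by the design. Where they were taken as a block within each stage, 1683 genes passed (746 higher and 937 lower in *C. linearis*). With edgeR on the 6 B1 libraries alone and no block, 2287 genes passed.

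**Figure D1:**
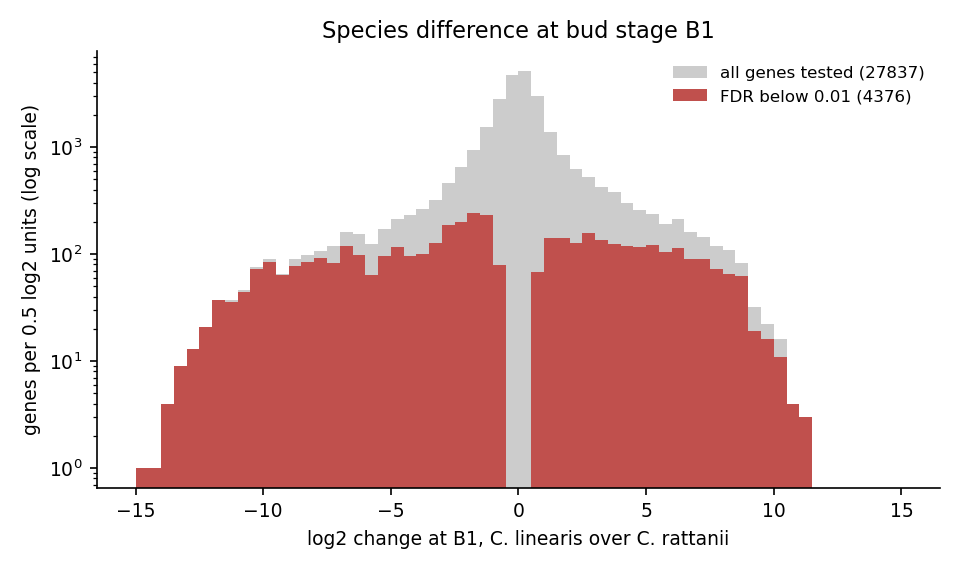
Histogram of the log2 change at B1, *C. linearis* over *C. rattanii*, in bins of 0.5 log2 units, with the number of genes on a log axis. Grey bars hold the 27837 genes tested and red bars the 4376 with an FDR below 0.01, of which 1901 lie right of 0 and 2475 left of it.

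Changes past the threshold were large. The median log2 change was 4.26 for the genes higher in *C. linearis* (quartiles 2.49 and 6.31) and -4.42 for those lower (quartiles -7.63 and -2.16), while the median size of the log2 change over all tested genes was 0.8. A log2 change of at least 5 was fitted for 769 genes higher in *C. linearis*, and one of -5 or below for 1100 genes. Fitted values of genes with no count in one species depend on the prior count of the fit. With these genes set to the bound that 3 counts over the group give, the medians were 4.07 and -4.04.

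The rate and the size of the calls varied with expression level. Genes with a mean of 1 to 10 CPM over the 6 libraries were called most often (23.3% of 8511 tested), followed by those under 1 CPM (18.5% of 5046). Of the 12398 genes at 10 to 100 CPM, 10.4% were called, and of the 1882 genes at 100 CPM or more, 8.56%. At 100 CPM or more, 96 genes were higher in *C. linearis* and 65 lower, whereas at 1 to 10 CPM the counts were 792 higher and 1194 lower. Among the 20290 genes with at least 10 counts in each of the 6 libraries, 856 were called higher in *C. linearis* (median log2 change 2.32) and 1080 lower (median -1.99), together 9.54%.

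The values of the 3 *C. linearis* plants did not overlap those of the 3 *C. rattanii* plants for 1822 of the 1901 genes called higher and 2469 of the 2475 called lower. Over all 27837 tested genes, 47.7% did not overlap (22.6% with *C. linearis* higher and 25.1% lower). The exceptions were uneven. Of the 79 genes called higher in *C. linearis* despite an overlap, 72 overlapped only through *C. linearis* plant 1, while plants 2 and 3 lay above every *C. rattanii* plant. Of these 72 genes, 51 had a log2 change of at least 5. Genes with reads in no library but those of *C. linearis* plants 2 and 3 at B1 were removed by the filter on low counts and are not counted here.

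Leaving out single B1 libraries lowered the number of calls and shifted the balance of directions. Without *C. linearis* plant 1, 3120 genes were called, 2901 of them among the 4376, with 1561 higher and 1559 lower in *C. linearis*. Without *C. rattanii* plant 1, 3158 genes were called, with 1089 higher and 2069 lower in *C. linearis*. Genes lower in *C. linearis* thus made up between 50% and 65.5% of the calls over the 6 leave-outs. Fewer genes passed without *C. linearis* plant 2 (2671), *C. rattanii* plant 2 (2766) or *C. rattanii* plant 3 (2823).

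**Figure D2:**
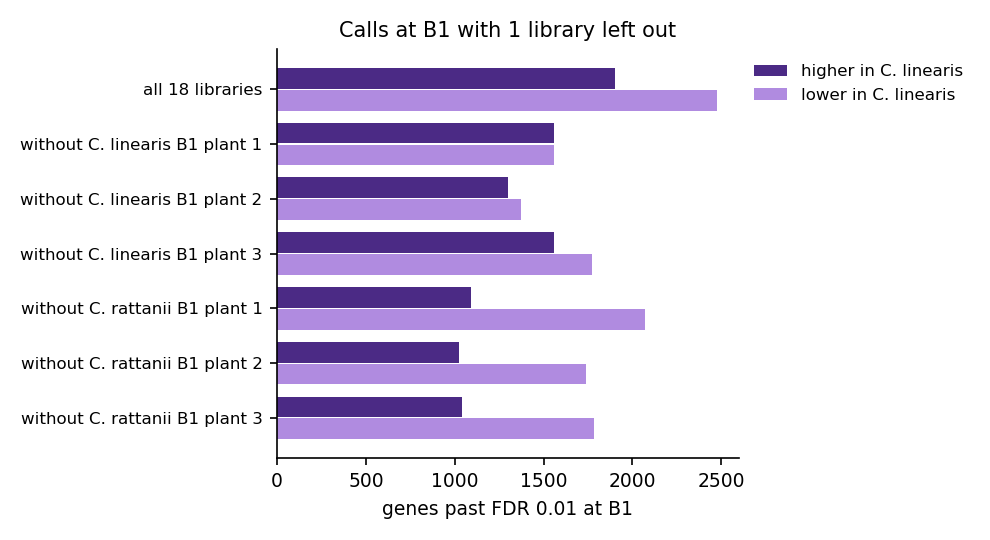
Number of genes with an FDR below 0.01 at B1 in the model of all 18 libraries and with 1 B1 library left out. Dark bars count genes higher in *C. linearis* and light bars genes lower. The dark bar is shorter than the light one with all libraries (1901 and 2475) and about equal to it without *C. linearis* plant 1 (1561 and 1559).

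A minority of genes had reads from one species and none from the other at B1. At least 10 counts in each *C. linearis* library and no count in any *C. rattanii* B1 library were found for 181 genes, against 578 genes with the reverse pattern. The genes seen in *C. linearis* had a median of 1.06 CPM and reached at most 10.7 CPM. Those seen in *C. rattanii* had a median of 2.83 CPM and reached 97.1 CPM. Of the 181 genes, 129 had a count in a *C. rattanii* library at B2 or B3, which leaves 52 without a *C. rattanii* count at any stage. Of the 578 genes, 255 had a count in a *C. linearis* library at B2 or B3 and 323 had none at any stage. The minimum set the number in *C. linearis*: with at least 1 count in each library the numbers were 784 and 1171, and with at least 20 they were 91 and 484. Without *C. linearis* plant 1 or plant 3, the number of genes seen in *C. linearis* alone was 292 or 352.

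The most abundant transcripts overlapped in part. The 50 genes with the highest mean CPM of each species shared 22 genes. Of the 50 of *C. linearis*, 9 were called higher in *C. linearis* (6.83% of all tested genes were), and of the 50 of *C. rattanii*, 4 were called lower in *C. linearis* (8.89% of all tested genes were). Each list was picked by a high mean in its own species, so these counts are a description.

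The pollen wall genes that the study picked were far higher in *C. linearis* plants 2 and 3 than in any *C. rattanii* plant. The study annotates further genes with exine formation that it did not pick, and those were not examined here. The study ties 6 genes to exine, sporopollenin or callose, *RCORA14962* through a picture and the others in its text and legends. It had picked them on these libraries, so their direction is not independent evidence. Of these 6 genes, 5 passed the filter, *RCORA14962* among them. All 5 rose in *C. linearis* at an FDR below 0.01, against 6.83% of all tested genes. The median log2 change of the 5 was 6.0, and that of all tested genes was 0.022. With plants of equal number as a block within each stage, 1 of the 5 passed. The design does not pair these plants, and the block was added after the data were seen. *C. linearis* plant 1 was far below plants 2 and 3 of its species in each of the 6 genes. In all of them but *RCORA36422* it was at most about 2 times the highest *C. rattanii* plant.

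*RCORA09826*, the ortholog of *LAP5* of *Arabidopsis thaliana*, encodes a chalcone synthase-like enzyme that makes sporopollenin precursors. It had 3.22, 353 and 662 CPM in *C. linearis* plants 1, 2 and 3, against 3.66, 3.27 and 8.96 CPM in *C. rattanii* plants 1, 2 and 3. *C. linearis* plant 1 lay below every *C. rattanii* plant, so the groups overlapped although plants 2 and 3 were far above. The log2 change was 6.0 (SE 1.14, edgeR FDR 0.00151). *RCORA03278*, the ortholog of *LAP6*, which acts beside *LAP5* in *A. thaliana*, had 9.09, 624 and 1172 CPM in *C. linearis* and 11.3, 11.9 and 20.1 CPM in *C. rattanii*. Its pattern was the same, with plant 1 of *C. linearis* lowest of all 6, and its log2 change was 5.38 (SE 1.04, edgeR FDR 0.00169).

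*RCORA186672*, also of sporopollenin and exine formation, separated the species without overlap. Its values were 13.3, 214 and 419 CPM in *C. linearis* and 6.27, 5.71 and 7.10 CPM in *C. rattanii*. Plant 1 of *C. linearis* was again the lowest of its species, though above all of *C. rattanii*. The log2 change was 5.08 (SE 0.83, edgeR FDR 0.000518). *RCORA14962*, of lipid metabolism and exine formation, had 1.48, 156 and 923 CPM in *C. linearis*, against 1.5, 1.35 and 7.94 CPM in *C. rattanii*. Again plant 1 of *C. linearis* fell among the *C. rattanii* values, and the log2 change was 6.64 (SE 1.45, edgeR FDR 0.00378).

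The callose genes of the group were almost without reads in *C. rattanii*. *RCORA36422* had 18, 1209 and 1129 counts in *C. linearis* and 0, 0 and 1 counts in *C. rattanii*. The groups did not overlap (edgeR FDR 0.0014). Summed counts over summed TMM library sizes gave a ratio of 2580 between the species. Its 95% counting interval of 463 to 102000 covers counting error only. *RCORA205649* had 0, 1538 and 1500 counts in *C. linearis* and 2, 0 and 3 counts in *C. rattanii*. It was removed by the filter on low counts, and in a fit without that filter its FDR was 0.00277 with edgeR. That filter asks for enough counts in at least as many libraries as the smallest group holds. Only *C. linearis* plants 2 and 3 at B1 had more than 5 counts of this gene. No read of it came from plant 1 of *C. linearis*.

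For another 3 genes the role in exine formation was read from pictures of the study, and each is given singly. *RCORA171666* had 5.94, 1297 and 2303 CPM in *C. linearis* and 3.32, 3.24 and 2.08 CPM in *C. rattanii*. The species did not overlap, although *C. linearis* plant 1 was within 3 CPM of *C. rattanii* plant 1. Its log2 change was 8.70 (SE 1.48, edgeR FDR 0.000692). *RCORA201861* had 0, 16.9 and 252 CPM in *C. linearis* and 0.482, 0.147 and 0.309 CPM in *C. rattanii*, with plant 1 of *C. linearis* below every other plant (log2 change 8.14, SE 1.88, edgeR FDR 0.0054). *RCORA175575* had 0.433, 76.0 and 106 CPM in *C. linearis* and 4.97, 5.21 and 4.15 CPM in *C. rattanii*. Its log2 change of 3.67 (SE 1.2) had an edgeR FDR of 0.0333 and did not pass. DESeq2's Wald test gave an FDR of 0.00239 on the 18 libraries and of 0.0329 on the 6 B1 libraries. Here plant 1 of *C. linearis* lay under all of *C. rattanii*, and without its B1 library the edgeR FDR was 0.0015.

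**Figure D3:**
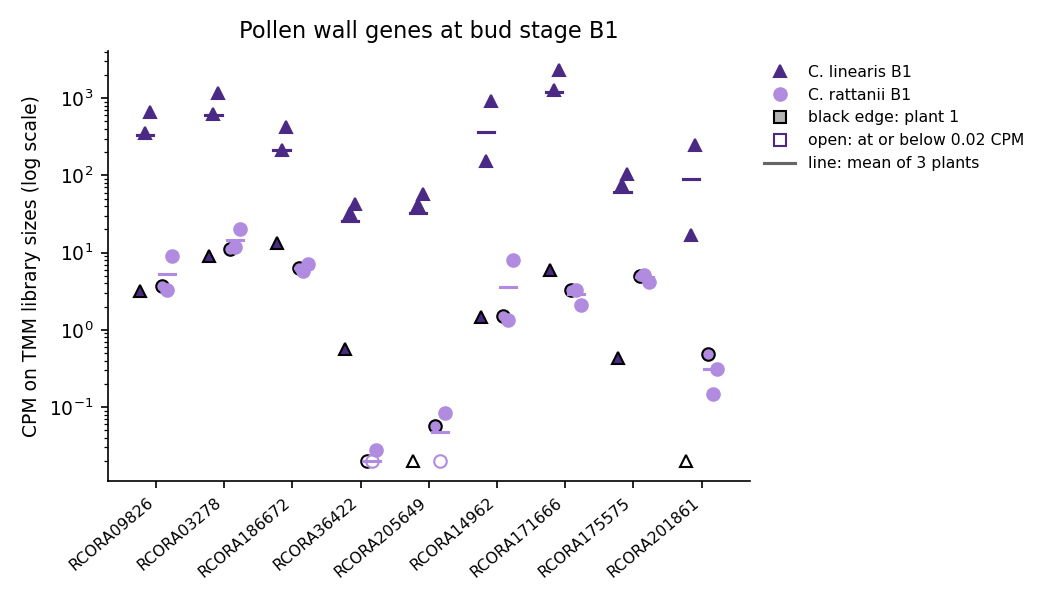
CPM on TMM library sizes (log axis) of 9 pollen wall genes at B1, with triangles for *C. linearis* plants, circles for *C. rattanii* plants and lines for the mean of 3 plants. Values and means below 0.02 CPM are drawn at 0.02. In each gene *C. linearis* plants 2 and 3 lie above all circles, and the triangle with a black edge, plant 1, lies near or below the circles in all but *RCORA36422*.

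The calls and the size of the changes in these genes moved with single libraries. *RCORA186672* and *RCORA171666* passed in each of the 6 fits with 1 B1 library left out. *RCORA14962* did not pass without *C. linearis* plant 3 or *C. rattanii* plant 1 or 2 (highest FDR 0.0202, without *C. rattanii* plant 2). *RCORA201861* did not pass without *C. linearis* plant 3 or any 1 of the *C. rattanii* plants (highest FDR 0.0328, without *C. linearis* plant 3). *RCORA03278* had an FDR of 0.0103 without *C. rattanii* plant 1 and of 0.0111 without plant 2, *RCORA09826* had one of 0.0104 without *C. rattanii* plant 2, and *RCORA36422* one of 0.0102 without *C. rattanii* plant 3. *C. linearis* plant 3 held the highest level of each, and without it the log2 change was 5.09 for *RCORA09826*, 4.47 for *RCORA03278*, 4.16 for *RCORA186672*, 4.48 for *RCORA14962*, 7.82 for *RCORA171666* and 4.74 for *RCORA201861*. Without *C. linearis* plant 1 it was 6.58 for *RCORA09826*, 5.96 for *RCORA03278*, 5.64 for *RCORA186672* and 7.23 for *RCORA14962*. In the same fit it was 11.45 for *RCORA36422*, 9.29 for *RCORA171666* and 8.72 for *RCORA201861*. The FDR of each of these genes fell in that fit, to between 1.13e-06 (*RCORA09826*) and 0.000343 (*RCORA36422*). Without *C. rattanii* plant 3 the log2 change was 6.59 for *RCORA09826* and 7.95 for *RCORA14962*.

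The fit of the 6 B1 libraries alone passed none of these genes with edgeR (FDR 0.0165 to 0.126). DESeq2's Wald test on the same 6 libraries passed each of them but *RCORA175575* (FDR 0.0329). The FDRs of those passed ran from 4.3e-08 (*RCORA186672*) to 0.00255 (*RCORA201861*). On the 18 libraries DESeq2 passed each of them. Without all libraries of *C. rattanii* plant 2, none of the 5 tested genes among the first 6 passed with edgeR. With plants of equal number as a block within each stage, a pairing that the design does not give, *RCORA36422* passed (FDR 0.00312). The other calls were lost, with an FDR of 0.0502 for *RCORA09826*, 0.0566 for *RCORA03278*, 0.0192 for *RCORA186672*, 0.0465 for *RCORA14962*, 0.0468 for *RCORA171666* and 0.165 for *RCORA201861*.

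Genes given a role in transcription changed in both directions. *RCORA141603* had 0.0928, 69.8 and 169 CPM in *C. linearis* and 0.0568, 0.147 and 0.449 CPM in *C. rattanii*. *C. linearis* plant 1 fell among the *C. rattanii* values, as in the pollen wall genes, and the log2 change was 8.48 (SE 1.77, edgeR FDR 0.00375). The gene did not pass without *C. linearis* plant 3 or any 1 of the *C. rattanii* plants (highest FDR 0.0204, without *C. rattanii* plant 2), and its FDR with the block within stages was 0.0203. Its log2 change was 7.32 without *C. linearis* plant 3, 9.07 without *C. linearis* plant 1 and 9.54 without *C. rattanii* plant 3. *RCORA41810* was lower in *C. linearis*, with 0.959, 0.542 and 0.569 CPM against 4.09, 3.47 and 2.95 CPM in *C. rattanii*. All *C. linearis* plants, plant 1 included, lay below all *C. rattanii* plants. It fell by 2.34 on the log2 scale (SE 0.42, edgeR FDR 0.00101), passed in all 6 leave-outs, and had an FDR of 0.0121 with the block within stages. *RCORA61416* had 8.04, 3.2 and 3.68 CPM in *C. linearis* and 10.8, 31.2 and 71.3 CPM in *C. rattanii*. The groups did not overlap, but its log2 change of -2.92 (SE 0.81) did not pass (edgeR FDR 0.015). DESeq2's Wald test gave it an FDR of 0.000978 on the 18 libraries and of 9.37e-05 on the 6 B1 libraries. Without *C. rattanii* plant 1, the lowest of its species, the edgeR FDR was 0.00875.

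Genes read from the pictures of the study as xyloglucan metabolism are also given singly. *RCORA41780* did not pass, with 25.8, 44.5 and 41.9 CPM in *C. linearis* and 125, 139 and 34.2 CPM in *C. rattanii*, where plant 3 lay within the range of *C. linearis* (log2 change -1.41, edgeR FDR 0.0616). *RCORA191130* had 48.2, 24.5 and 10.2 CPM in *C. linearis* and 47.9, 57.1 and 103 CPM in *C. rattanii*, an overlap through *C. linearis* plant 1. Its log2 change was -1.33 (FDR 0.0759), and -2.0 (FDR 0.0227) without the B1 library of that plant. The overlap in *RCORA202024* was also through *C. linearis* plant 1, with 9.87, 2.82 and 2.77 CPM against 9.39, 12.9 and 38.2 CPM in *C. rattanii* (log2 change -1.97, FDR 0.0831). Without the B1 library of that plant, the log2 change of *RCORA202024* was -2.85 (FDR 0.0428).

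*RCORA205395* was low in *C. linearis*, with 0.464, 0.298 and 0.266 CPM, and *C. rattanii* had 4.43, 6.65 and 0.421 CPM. Plant 3 of *C. rattanii* was at the level of *C. linearis*, and the log2 change of -3.46 had an FDR of 0.0549 with edgeR and 0.007 with DESeq2. *RCORA38638* had 10.3, 0.217 and 0.797 CPM in *C. linearis* and 4.60, 1.94 and 0.281 CPM in *C. rattanii*. *C. linearis* plant 1 was the highest of all 6, and the fitted log2 change of 0.73 (edgeR FDR 0.744) was -2.19 without its B1 library.

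Glycerol-3-phosphate catabolism links glycerolipid and carbohydrate metabolism, and this role of the next genes was likewise read from pictures. *RCORA02590* had 10.8, 21.1 and 22.4 CPM in *C. linearis* and 23.9, 18.9 and 11.0 CPM in *C. rattanii*, with a full overlap and a log2 change of 0.01 (SE 0.45, edgeR FDR 0.985). *RCORA68085* had 22.5, 22.6 and 20.5 CPM in *C. linearis* and 23.3, 40.9 and 40.6 CPM in *C. rattanii*. All *C. linearis* plants lay below, by less than 1 CPM in the closest pair, and its log2 change of -0.68 (SE 0.28, FDR 0.0834) did not pass.

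**Figure D4:**
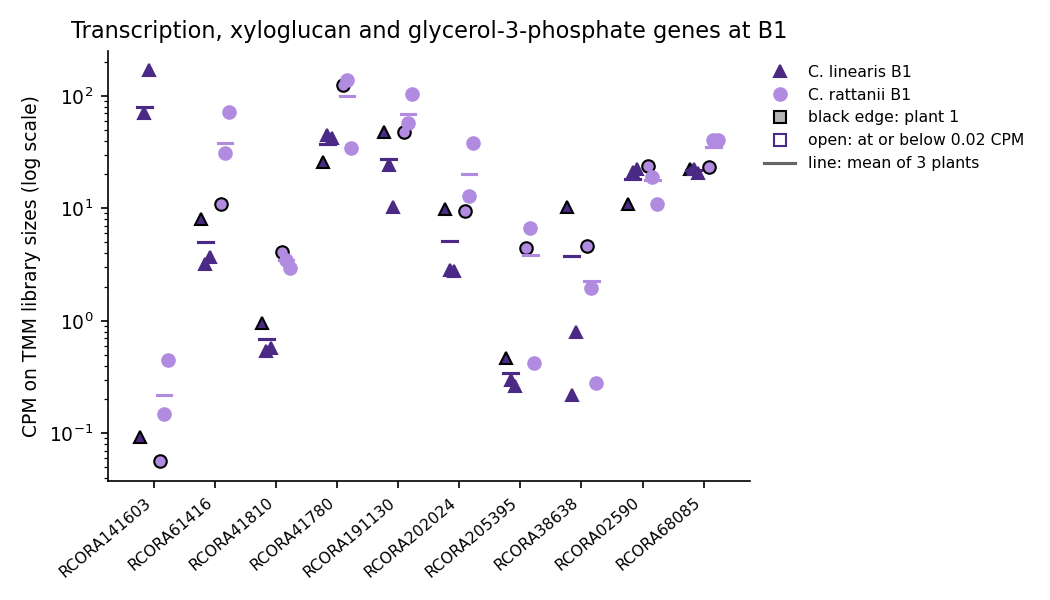
CPM on TMM library sizes (log axis) at B1 of 3 genes of transcription, 5 of xyloglucan metabolism and 2 of glycerol-3-phosphate catabolism, with triangles for *C. linearis* plants, circles for *C. rattanii* plants and lines for the mean of 3 plants. Triangles and circles are clear of each other in *RCORA61416*, *RCORA41810* and *RCORA68085*, of which *RCORA41810* passed the test.

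The largest changes among well-covered genes fell on genes without a given role. Among genes called at B1 with at least 10 counts in each of the 6 libraries, the highest log2 changes were those of *RCORA79906* and *RCORA156917*, and the lowest those of *RCORA221220* and *RCORA205768*. *RCORA79906* had 9.12, 358 and 695 CPM in *C. linearis* and 0.709, 0.677 and 0.786 CPM in *C. rattanii* (log2 change 8.93, SE 1.55, edgeR FDR 0.000805). *RCORA156917* had 0.309, 471 and 942 CPM in *C. linearis* and 1.02, 0.942 and 1.04 CPM in *C. rattanii* (log2 change 8.87, SE 1.85, FDR 0.00281). *C. linearis* plant 1 was the lowest of its species in both, and in *RCORA156917* it lay below all of *C. rattanii*.

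In the genes that fell most, no *C. linearis* plant reached the level of *C. rattanii*. *RCORA205768* had 0.557, 0.515 and 0.531 CPM in *C. linearis* and 103, 103 and 141 CPM in *C. rattanii* (log2 change -7.75, SE 1.59, edgeR FDR 0.0025). *RCORA221220* had 5.81, 1.17 and 4.44 CPM in *C. linearis* and 62.7, 134 and 2750 CPM in *C. rattanii* (log2 change -8.01, SE 1.73, FDR 0.00356). The species did not overlap in either gene, and a single library, *C. rattanii* plant 3, held most of the *RCORA221220* reads. Without that library the log2 change of *RCORA221220* was -4.73 (FDR 0.0132). *RCORA79906* passed in all 6 leave-outs, with a log2 change of 7.98 without *C. linearis* plant 3, where that of *RCORA156917* was 7.88. *RCORA156917* did not pass without any 1 of the *C. rattanii* plants (FDR up to 0.0165), *RCORA205768* without any 1 of the *C. linearis* plants (up to 0.0151), and *RCORA221220* without any 1 of the *C. linearis* plants or *C. rattanii* plant 3 (up to 0.0184). With the block within stages the 4 FDRs lay between 0.0135 and 0.11.

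Most genes called at B1 differed in the same direction at the later stages. At B2, 5561 genes (20% of those tested) were called, with 9.71% higher and 10.3% lower in *C. linearis*. At B3, 4168 genes (15%) were called, with 6.95% higher and 8.03% lower in *C. linearis*. The B2 calls included 3126 of the B1 calls with the same sign, which is 71.4% of the B1 calls and 56.2% of the B2 calls, and no gene called at both stages had opposite signs. The B3 calls included 2443 of the same sign (55.8% of B1 and 58.6% of B3 calls) and 5 of the opposite sign. At all 3 stages 2246 genes were called with the same sign, 843 higher and 1403 lower in *C. linearis*. The same plants were sampled at each stage, so the stages are not independent of each other.

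Of the genes called at B1, 1048 had an FDR above 0.01 at B2 and at B3, 489 higher and 559 lower in *C. linearis* at B1. Among the 489 were 70 of the 72 genes in which *C. linearis* plants 2 and 3 stood above all *C. rattanii* plants and plant 1 did not. Over all genes called higher at B1 the median log2 change was 4.26 at B1, 3.45 at B2 and 2.48 at B3, and over those called lower it was -4.42 at B1, -3.34 at B2 and -3.24 at B3. These genes were chosen for their B1 value, so a smaller median at the other stages is a description of the choice as well as of the stages.

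The 7 pollen wall genes called at B1 were called at neither later stage. *RCORA171666* had 1.85, 1.84 and 3.42 CPM in *C. linearis* at B2, against 5.94, 3.33 and 4.25 CPM in *C. rattanii* (log2 change -0.92, edgeR FDR 0.514). *RCORA09826* had 2.99, 2.71 and 2.43 CPM in *C. linearis* at B2, against 3.98, 3.41 and 3.96 CPM in *C. rattanii* (log2 change -0.48, FDR 0.706). In both genes the B1 library of *C. linearis* plant 1 was closer to these B2 values than to the other B1 plants. The transcription gene *RCORA41810* was also lower in *C. linearis* at B2 (log2 change -2.66, edgeR FDR 0.00036) and did not pass at B3 (log2 change 0.26, FDR 0.646). *RCORA205768* was also lower in *C. linearis* at B2 (log2 change -5.77, FDR 0.00703) and at B3 (-5.93, FDR 0.00815). At B3 it had 1.51, 0.881 and 0.908 CPM in *C. linearis* and 117, 84.6 and 0.032 CPM in *C. rattanii*, so that *C. rattanii* plant 3 lay below every *C. linearis* plant.

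The difference between stages was tested as the B1 species difference minus the mean of the B2 and B3 species differences. The same plants were sampled at each stage, but the edgeR and DESeq2 fits treated the libraries as independent. No gene passed an FDR of 0.01 with edgeR's quasi-likelihood test (0% of those tested, lowest FDR 0.0427), while 4009 (14.4%) had an unadjusted p below 0.05. With DESeq2's Wald test, 480 genes passed. Without the B1 library of *C. linearis* plant 1, 136 genes passed with edgeR, 131 of them with a positive difference. For *RCORA171666* the difference was 9.21 on the log2 scale (SE 1.60, edgeR FDR 0.0557), and for *RCORA09826* it was 6.42 (SE 1.27, FDR 0.0626). DESeq2's Wald test gave FDRs of 5.38e-10 and 4.06e-06 for the same differences, and an FDR below 0.01 for each of the 8 tested pollen wall genes. Whether a species difference was particular to B1 therefore varied with the tool.

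**Figure D5:**
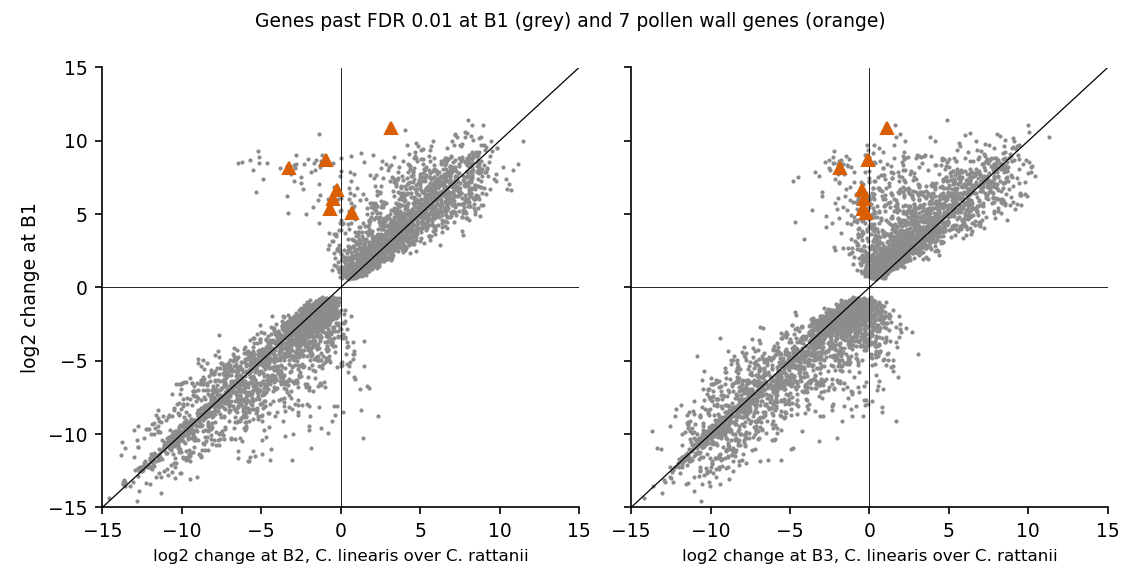
Log2 change at B1 (vertical) against that at B2 (left) and B3 (right), *C. linearis* over *C. rattanii*, for the 4376 genes called at B1 (grey) and the 7 pollen wall genes among them (orange), with a diagonal of equal change. Most grey points follow the diagonal, with 127 of opposite sign at B2 and 371 at B3, and the orange points lie near 0 or below on the horizontal axis except *RCORA36422*, whose fitted values rest on near-zero counts in *C. rattanii*.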

How the data were processed

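The deposited table holds whole-number read counts per gene. The authors aligned the raw reads of either species to the *C. rattanii* genome they had assembled, and counted reads per predicted gene. The labels and the methods text do not give the strand and multi-mapping settings, and the study's code was not used here, so overlapping genes, antisense genes and close paralogs may share reads. The library kit was directional and selected poly(A) RNA. No row lacked a gene identifier, and 2 pooled columns, 1 per species, were not used.

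Counts were analysed in R 4.3.3 with edgeR 4.0.16. Genes were filtered with filterByExpr (27837 of 46127 kept, with 99.5% to 100.0% of each library's counts), scaled by TMM, and fitted with 1 mean per species and stage over 18 libraries. The species contrast at B1 used the quasi-likelihood test with Benjamini-Hochberg adjustment at an FDR of 0.01. CPM values use TMM library sizes, and log2 CPM used a prior count of 2. The script was tested on simulated data. Replicates were plants, and within a species library pairs differed by more than sampling noise. Alternatives used DESeq2 1.42.0, limma 3.58.1, other scalings, filters, blocks and leave-outs. A fit without 1 B1 library keeps the gene set of the full fit.

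Plants carry numbers 1 to 3 in both species, but the labels name different individuals. At B1 the deviations of same-numbered plants from their species means correlated at 0.348, 0.16 and 0.23 over the tested genes, so values with a block are given beside results it changed. At B2 the correlations were -0.126, -0.168 and -0.0334, and at B3 -0.0182, 0.141 and 0.0918. The block therefore rests on the B1 data and not on the design, and plants of unlike number were not compared in this way.

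The genes named are those to which the study gives an identifier and a function, those whose function was read from its pictures in an earlier account of the series (given singly, with no median or test over them), and the 2 highest and 2 lowest changes among called genes with at least 10 counts in each B1 library. The exine role of *RCORA14962* also rests on a picture, and that gene is part of the median given for the pollen wall genes. The comparison, the gene lists and the tests were chosen with earlier results of these data known. Sequences, positions and gene names were not used here.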

Additional observations from a re-analysis of the deposited data

Results flagged for a closer look

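*RCORA68085*, of glycerol-3-phosphate catabolism, differed between the species in opposite directions at B1 and B3, and the values did not overlap at either stage. At B1 it had 22.5, 22.6 and 20.5 CPM in *C. linearis* and 23.3, 40.9 and 40.6 CPM in *C. rattanii*, and at B3 it had 48.2, 51.9 and 34.8 CPM in *C. linearis* and 24.3, 19.5 and 19.5 CPM in *C. rattanii*. The log2 change was -0.68 at B1 (edgeR FDR 0.0834) and 1.09 at B3 (FDR 0.0108), neither past 0.01. The B1 change minus the B3 change was -1.77 on the log2 scale, a difference that was not tested as such. The B1 change minus the mean of the B2 and B3 changes was -1.12 (edgeR FDR 0.18).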

How the results depend on the processing

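At B1, 4376 genes were called. The count was 8299 at an FDR of 0.05, 7228 with DESeq2 on 18 libraries, 9338 with DESeq2 and 2287 with edgeR on the 6 B1 libraries, 1555 with at least 10 counts in each B1 library and 2577 against a log2 change of 1. It ran from 2138 to 3774 with 1 B1 library or all libraries of 1 plant left out, the lowest without *C. rattanii* plant 2. The plant number as a replicate block gave 3729 genes over 18 libraries, 1683 as a block within each stage (added after the data were seen) and 0 in the 6 B1 libraries alone, where 9968 had an unadjusted p below 0.05. At B2 the counts were 10547 at an FDR of 0.05, 8921 with DESeq2, 2747 with the minimum of 10, 2516 against a log2 change of 1, 2009 with the block within stages and 2295 to 6259 over the leave-outs. At B3 they were 8804, 7631, 1819, 2149, 1258 and 1493 to 4724 for the same settings. Scaling by library totals moved the median log2 change of all genes to -0.295 at B2 and -0.398 at B3, against -0.022 at B1. For the B1 difference minus the later ones, the count was 1 with limma-voom, which took each plant as a random block. It was 3 with edgeR at an FDR of 0.05, 480 with DESeq2 and 0 to 136 over the leave-outs. Without all libraries of *C. linearis* plant 1 it was 108, and without those of plant 3 it was 43. The spread ratio ran from 0.688 to 3.22 over the leave-outs, and the numbers of genes seen in one species were 187 to 352 in *C. linearis* and 599 to 714 in *C. rattanii*. With at least 1 count they were 784 and 1171, and with at least 20 they were 91 and 484. *RCORA38638* had a log2 change of -0.18 with limma-voom and of -2.19 to 1.77 over the leave-outs. *RCORA02590* had 0.00 without a filter and with the minimum of 10 counts, -0.02 with the replicate block over 18 libraries, and -0.27 to 0.28 over the leave-outs. The 8 tested pollen wall genes kept their direction in each fit, and their calls varied as given beside them. With limma-voom none of the 8 passed. In each case the cause was not tested. With 3 plants a species, the fits that use the 6 B1 libraries alone have few degrees of freedom for the spread, and counts near 0 limit what a fold change can say.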
